A study of Mus musculus with 12 samples.

Results

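The genes described here are the neuropeptide precursors Cck, Sst, Npy, Vip, Crh, Tac1 and Adcyap1, together with the cholecystokinin receptor gene Cckbr and the binding protein gene Crhbp. They were taken by symbol from the table of normalized counts, which makes 9 of its 15759 genes, and all 9 had a mean over the minimum of 10 normalized counts used for testing. RNA of whole cortex and of whole cerebellum was sequenced from SCA1 KI and WT mice, with 3 libraries in each of the 4 groups. SCA1 KI mice carry an expanded CAG repeat in 1 allele of Atxn1 (Atxn1 154Q/2Q), the gene of spinocerebellar ataxia type 1 (SCA1), and express it from the gene's own locus in every cell that uses it. WT mice were wild type, and all groups were C57BL/6J mice of 12 weeks with no other allele or agent named. Mice were male by the labels, while the study's methods describe both sexes together. The cerebellar libraries had been published by the same laboratory in an earlier experiment, so region and source of the libraries cannot be told apart. Nothing in the sources used here says whether libraries of a group came from separate litters, and p-values measure only the spread between these libraries.

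Neuropeptides are cut from larger precursor proteins, packed into dense-core vesicles and released on strong activity to act on G protein-coupled receptors. In the cortex Sst, Npy, Vip, Crh and Tac1 are known from classes of GABAergic interneurons, whereas Cck is made by interneurons and by many pyramidal cells, and Adcyap1 mainly by excitatory neurons. Cckbr is the main cholecystokinin receptor of the brain, and Crhbp encodes a secreted protein that binds corticotropin-releasing hormone and is itself a marker of somatostatin interneurons. The cerebellum holds few neurons of these classes, while midbrain, brainstem and diencephalon are rich in several of these peptides.

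Several of these genes are known for transcription driven by cyclic AMP through the element TGACGTCA, or its shorter core TGACG. To show that element next to the values, the windows from 250 bases before to 50 bases after the start of each gene were taken from RefSeq on GRCm38.p6, with both strands searched and each core inside a full element counted too. A window was found for 8 of the 9 genes, all but Crh. The full element was present in 1 of these 8 genes (Sst) and in 1.79% of all 32851 windows. The core was present in 6 of the 8 (Sst, Vip, Cck, Tac1, Crhbp and Adcyap1) and in 20.8% of all windows, and TATAAA in 3 of the 8 and 13.6% of all windows. No match in a window says only that these letters are not in it. The following stretches of 30 bases are given 5′ to 3′ on the strand of the gene, with the element or core in capitals, because they compare the peptide genes that were called lower in the cerebellum and hold a match within 100 bases of the start.
Sst: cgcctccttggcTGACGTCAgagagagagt
Vip: gatcactactgTGACGtctttcggggagcc
Cck: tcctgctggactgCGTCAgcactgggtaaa
Tac1: acgtggctctacaggctCGTCAcgcctgag
The Sst stretch is chr16:23890875-23890904 on the minus strand, and the Cck stretch chr9:121495725-121495754, also on the minus strand. The Tac1 stretch is chr6:7555001-7555030 on the plus strand, and the Vip stretch chr10:5639128-5639157 on the plus strand. Positions run from -60 to -31 of the start in Sst, Cck and Tac1, and from -90 to -61 in Vip. The Sst and Tac1 stretches lie within exons of longer models of the same genes in GENCODE vM21, whereas the Cck and Vip stretches lie in no annotated exon. Cck and Tac1 hold the core on the opposite strand, written CGTCA.

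The libraries held between 29520855 and 51311309 reads on genes. The deposited value is the number of reads divided by the size factor of the library, and differences between SCA1 KI and WT are given as log2 fold changes (LFC) of the value plus 1 with their standard error (SE), fitted by limma over 15369 genes. A gene was called when its Benjamini-Hochberg adjusted p was under 0.05 and its absolute LFC over 0.25. Marker genes of the labelled tissues fitted the labels, as 7 cerebellar granule cell genes summed to between 141975 and 200072 normalized counts in cerebellar libraries and to between 1340 and 2107 in cortical libraries. The lowest cerebellar sum was that of WT library 2, and the others lay between 190144 and 200072. For 6 Purkinje cell genes library 2 was again the lowest WT library (278353, 349900 and 331947 in libraries 2, 4 and 6), with SCA1 KI cerebellum between 256080 and 288484. Marker genes of midbrain and brainstem did not keep to a region or genotype. Their 11 genes summed to between 1047 and 1651 in WT cerebellum, to between 391 and 461 in SCA1 KI cerebellum, to between 459 and 572 in WT cortex and to between 1059 and 1941 in SCA1 KI cortex. These values are given again beside the results that they move with, and their part in those results was not tested.

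Per kb of exon, which allows levels to be compared between genes, Cck was the highest of the 9 genes in WT cortex, at a mean of 9500 normalized counts per kb. It was followed by Sst (7665), Npy (4816), Cckbr (930), Vip (619) and Crhbp (499), each with a range of libraries that did not overlap that of the next gene. Adcyap1 and Crh, both at 234 per kb, overlapped each other, and Tac1 was lowest at 154. In SCA1 KI cortex the first 4 places were the same, and from Crhbp (321) through Vip (313), Adcyap1 (233) and Tac1 (187) to Crh (141) each gene overlapped the next. In WT cerebellum the neighbours Cck (946), Sst (813) and Npy (607) overlapped, whereas in SCA1 KI cerebellum Sst lay at 78.7 per kb, below Cck (484), Npy (371) and Adcyap1 (111), with no overlap among these 4.

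**Figure D1:**
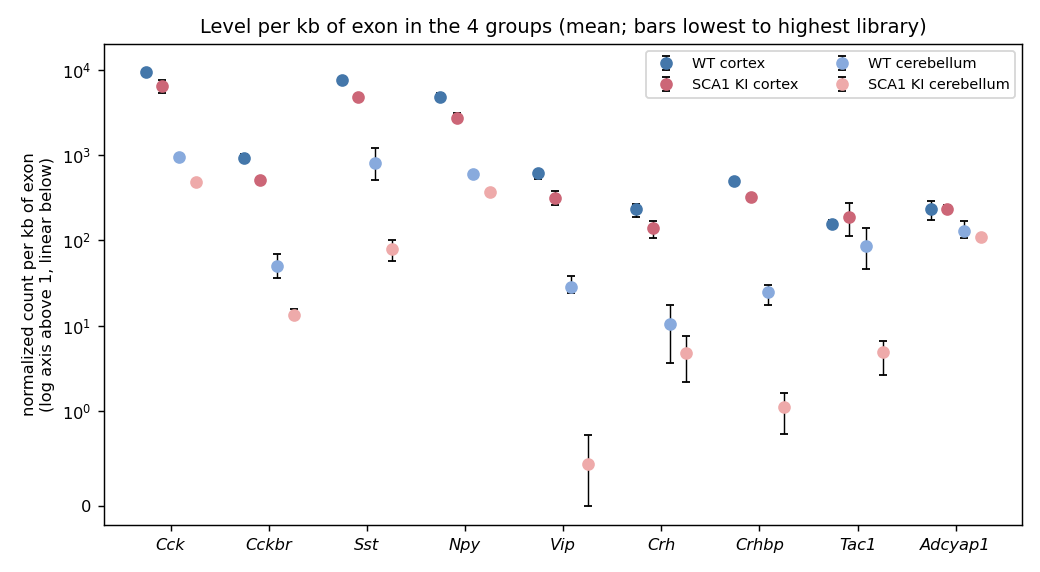
Mean normalized count per kb of exon (log axis above 1, linear below) of the 9 genes in WT cortex, SCA1 KI cortex, WT cerebellum and SCA1 KI cerebellum, with bars from the lowest to the highest of 3 libraries. Cck is highest in every group, and Vip falls from 619 per kb in WT cortex to 0.437 per kb in SCA1 KI cerebellum.

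For 8 of the 9 genes the mean normalized count fell in the order WT cortex, SCA1 KI cortex, WT cerebellum and SCA1 KI cerebellum. Neighbouring groups in this order did not overlap for Cck, Cckbr, Sst, Npy, Vip and Crhbp. The cerebellar genotypes overlapped for Crh, and both genotype pairs overlapped for Adcyap1. Tac1 was the exception, with SCA1 KI cortex first and with overlap between both cortical groups and between WT cortex and WT cerebellum. In WT mice 8 of the 9 genes were called higher in the cortex than in the cerebellum, beside 31.0% of all genes tested, and in SCA1 KI mice all 9, beside 32.0%. The gene not called in WT was Tac1 (LFC 0.96 ± 0.41 SE, adjusted p = 0.0502), which passed in 5 of 12 fits that each left out 1 library (adjusted p between 0.00779 without WT cerebellum library 2 and 0.222 without WT cerebellum library 4).

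In the cortex Npy, Cckbr and Cck were called lower in SCA1 KI mice, 3 of 9 genes beside 10.8% of all genes tested, and none was called higher. In 7 of 9 genes, all but Tac1 and Adcyap1, every SCA1 KI library lay below every WT library, beside 18.0% of all genes tested. The median LFC of the 9 genes was -0.69, against -0.0028 over all genes. In whole tissue, fewer cells of a type and less RNA per cell cannot be told apart. Of the calls over all genes in the cortex, 69.2% were lower, or 56.8% after removal of each library's dependence on gene length and GC. After this removal 4 of the 9 genes were called lower, beside 1383 of all 15369 genes tested.

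Cholecystokinin is the most abundant of these peptides in the cortex. Its precursor gene Cck (chr9:121489824-121495694, minus strand, GRCm38) had normalized counts of 11245, 12498 and 13450 in WT cortex and of 9940, 8381 and 7028 in SCA1 KI cortex. The highest SCA1 KI library stayed below the lowest WT library, and the LFC was -0.56 ± 0.11 SE (adjusted p = 0.00429). For Cckbr (chr7:105425731-105470898, plus strand), the receptor, WT libraries had 2683, 2947 and 2357 and SCA1 KI libraries 1398, 1509 and 1497. The SCA1 KI libraries lay close together and well under the WT range, with an LFC of -0.85 ± 0.19 SE (adjusted p = 0.00692). Precursor and receptor were thus both lower in all 3 SCA1 KI libraries.

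Npy (chr6:49822710-49829507, plus strand), whose peptide damps transmitter release, had normalized counts of 2655, 2514 and 3008 in WT cortex and of 1737, 1502 and 1424 in SCA1 KI cortex. Its groups were far apart relative to their spread, with an LFC of -0.81 ± 0.09 SE (adjusted p = 1.11e-04), the smallest p of the 9 genes in the cortex. Sst (chr16:23889573-23890958, minus strand), which encodes the inhibitory peptide somatostatin, had 5748, 4946 and 5886 in WT and 3592, 3512 and 3158 in SCA1 KI cortex. These groups did not overlap either, and the LFC was -0.69 ± 0.25 SE, but the adjusted p was 0.0793. The same differences gave an adjusted p of 0.00190 when the cortex was fitted on its own, 0.0422 with edgeR and 0.0790 with DESeq2. Without WT cerebellum library 2 or 4 it was 0.0193 or 0.0329, although neither enters the cortical means. None of the other fits without 1 library called Sst (adjusted p up to 0.170). Of the 9 other settings at the same LFC limit, 2 called it.

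Vip (chr10:5639218-5647617, plus strand) marks interneurons that inhibit other interneurons. Its WT libraries had normalized counts of 1793, 2256 and 2269 and its SCA1 KI libraries 1282, 1035 and 881. Again there was no overlap, with an LFC of -0.99 ± 0.37 SE and an adjusted p of 0.0879. With the cortex fitted on its own the adjusted p was 0.00327, with edgeR 0.00198 and with DESeq2 1.21e-06. After removal of the length and GC trend it was 0.0518. Of the 9 other settings at the same LFC limit 4 called Vip, with an adjusted p of up to 0.206. Of 12 fits without 1 library, 1 called it, that without SCA1 KI cerebellum library 3 (0.00603). The others reached up to 0.204. The spread of Vip in the fit over all 12 libraries included that of SCA1 KI cerebellum, where it was counted at 0 to 3 reads.

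Corticotropin-releasing hormone and its binding protein form a pair in which the second limits the action of the first. Crh (chr3:19693401-19695396, minus strand) had normalized counts of 246, 352 and 328 in WT and of 142, 190 and 224 in SCA1 KI cortex, so the nearest libraries, 246 and 224, were not far apart. Its LFC was -0.74 ± 0.46 SE (adjusted p = 0.309), with an adjusted p of 0.0446 when the cortex was fitted on its own, 0.0864 with edgeR and 0.0454 with DESeq2. Crhbp (chr13:95431371-95444924, minus strand) had 892, 919 and 881 in WT and 566, 548 and 620 in SCA1 KI cortex, with little spread in either group. Its LFC of -0.64 ± 0.21 SE had an adjusted p of 0.0564, which was 0.00267 when the cortex was fitted on its own, 0.00253 with edgeR and 2.31e-07 with DESeq2. Leaving out WT cerebellum library 2 gave 0.0424, library 4 of the same group 0.0283 and SCA1 KI cerebellum library 5 0.0313. None of the other fits without 1 library called Crhbp (adjusted p up to 0.142). Of the 9 other settings at the same LFC limit, 5 called it.

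Across these settings the cortex gave 3 called genes of the 9 in the fit of both regions, 7 when it was fitted on its own (Cck, Cckbr, Npy, Sst, Vip, Crh and Crhbp, beside 8.63% of all genes called lower in that fit) and 6 with edgeR or DESeq2. The 6 of edgeR included Sst and not Crh, beside 1630 of all 15369 genes called lower. Those of DESeq2 included Crh and not Sst, beside 1844 of 15369. With an absolute LFC limit of 1, none of the 9 was called in the cortex by limma, although Npy, Cck and Cckbr kept adjusted p-values under 0.05 and 6 genes had an unadjusted p under 0.05. The LFC of edgeR and DESeq2 was also under 1 in size for each of the 9 genes in the cortex.

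Tac1 and Adcyap1 set themselves apart from the other genes in the cortex. Tac1 (chr6:7554879-7565834, plus strand), the precursor of substance P, had 582, 469 and 519 in WT cortex and 383, 590 and 934 in SCA1 KI libraries A, E and F. The SCA1 KI libraries thus ran from below to above the whole WT range, and the LFC was 0.19 ± 0.41 SE (adjusted p = 0.793), or -0.13 without library F. Library F also had the highest cortical values of Calb2 (2000, others 340 to 624) and Th (561, others 29.6 to 151), genes chosen after their values were seen. Their part in the Tac1 value of that library was not tested. Adcyap1 (chr17:93199017-93206537, plus strand), the precursor of PACAP, had 662, 1083 and 912 in WT and 828, 824 and 992 in SCA1 KI cortex. All SCA1 KI libraries lay inside the WT range, with an LFC of 0.02 ± 0.18 SE (adjusted p = 0.963).

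**Figure D2:**
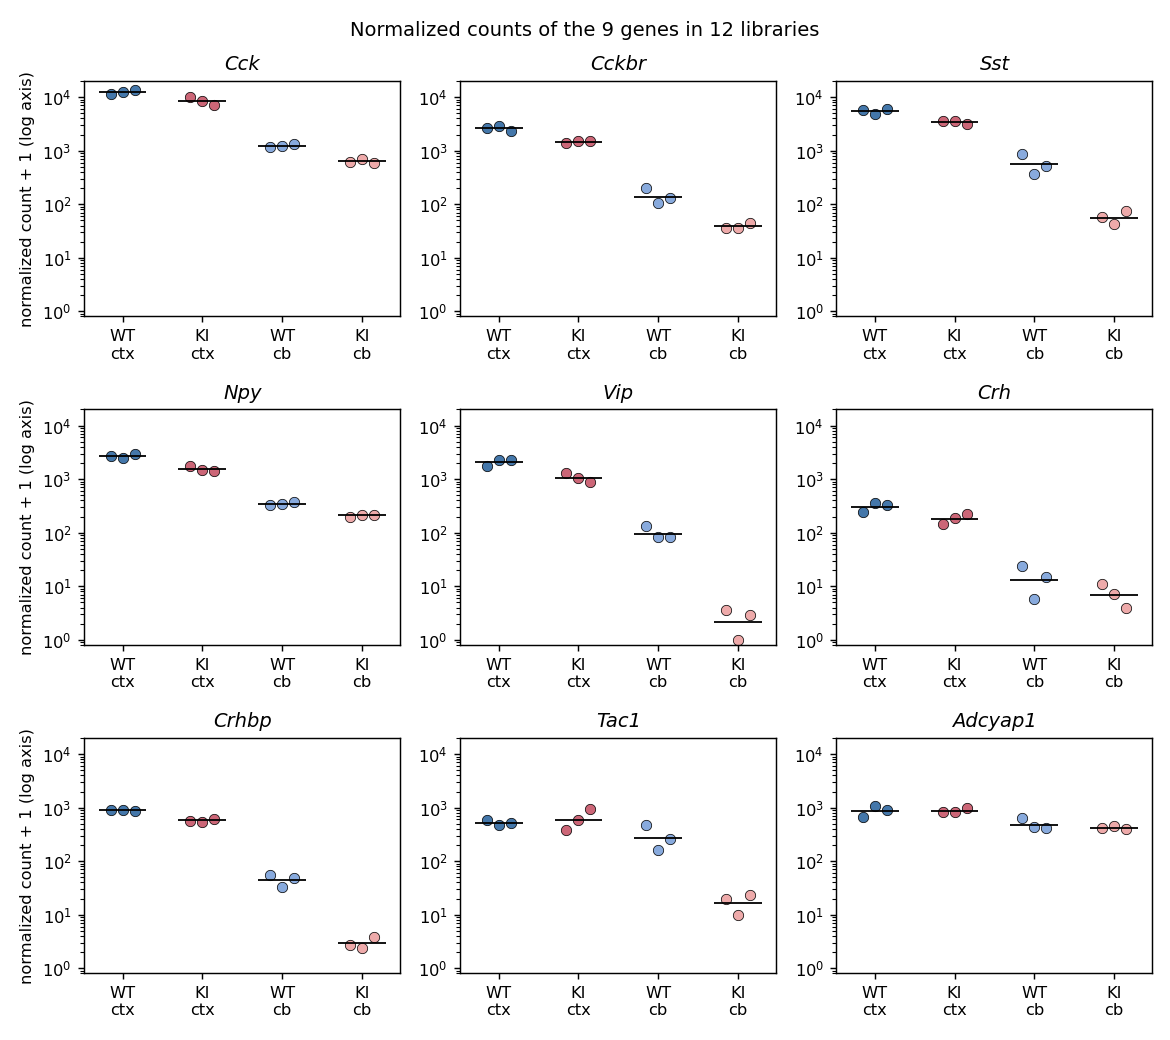
Normalized count plus 1 (log axis) of each of the 9 genes in 12 libraries, with points for libraries and bars for geometric means of WT and SCA1 KI (KI) cortex (ctx) and cerebellum (cb). In the cortex only Tac1 and Adcyap1 overlap between genotypes, and in the cerebellum only Crh and Adcyap1.

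In the cerebellum 7 of the 9 genes, all but Crh and Adcyap1, were called lower in SCA1 KI mice, beside 4.44% of all genes tested. The same 7 genes had no overlap between genotypes, beside 17.5% of all genes tested, and none of the 9 was called higher. Their size of change differed widely, from -0.71 for Npy to -5.47 for Vip. Genes with the cyclic AMP core in their window (Sst, Vip, Cck, Tac1 and Crhbp) and without it (Npy and Cckbr) were among them, and Adcyap1, which holds the core, was not. Crh, also not called, had no window, and a link between core and change was not tested. Of the calls over all genes, 82.9% were lower, or 52.8% after removal of the length and GC trend. After this removal 7 of the 9 genes were called lower, beside 611 of all 15369 genes tested.

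Vip and Crhbp were close to absent from SCA1 KI cerebellum. Vip had normalized counts of 130, 81.8 and 81.5 in WT libraries 2, 4 and 6 and of 2.53, 0 and 1.94 in SCA1 KI libraries 1, 3 and 5, from 3, 0 and 2 reads. A total of 279 WT reads stood against 5 SCA1 KI reads, a depth-adjusted ratio of 74.0 (exact 95% interval 31.3 to 230, counting error only). The fitted LFC was -5.47 ± 0.37 SE (adjusted p = 6.52e-06), a value that depends on the added count of 1. Crhbp had 53.9, 31.8 and 47.8 in WT and 1.69, 1.37 and 2.90 in SCA1 KI libraries. Here 126 reads stood against 7, a ratio of 23.9 (exact 95% interval 11.3 to 60.6), with an LFC of -3.93 ± 0.21 SE (adjusted p = 1.17e-06). Per library the SCA1 KI reads of these genes reached at most 3.

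Tac1 and Sst were also lower in every SCA1 KI library. Tac1 had 472, 158 and 255 normalized counts in WT libraries and 18.5, 8.93 and 22.3 in SCA1 KI libraries, with an LFC of -4.02 ± 0.41 SE (adjusted p = 9.74e-05). Sst had 864, 368 and 528 in WT and 56.4, 41.2 and 72.6 in SCA1 KI libraries, with an LFC of -3.29 ± 0.25 SE (adjusted p = 1.20e-05). In both genes WT library 2 was highest, library 6 in the middle and library 4 lowest, with over 2 times the level of library 4 in library 2. Cckbr had 196, 105 and 127 against 34.5, 35.0 and 44.5, and library 2 was again the highest, with an LFC of -1.84 ± 0.19 SE (adjusted p = 9.74e-05).

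Cck and Npy changed less and varied little among libraries. The normalized counts of Cck were 1165, 1206 and 1331 in WT and 604, 693 and 598 in SCA1 KI cerebellum, with an LFC of -0.97 ± 0.11 SE (adjusted p = 3.05e-04). Npy had 326, 337 and 368 in WT and 199, 214 and 217 in SCA1 KI cerebellum, with an LFC of -0.71 ± 0.09 SE (adjusted p = 7.68e-04). For both genes WT library 2 was the lowest of the WT libraries, in contrast to the genes above.

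Crh was near the limit of counting, with 22.8, 4.89 and 14.0 in WT and 10.1, 6.18 and 2.90 in SCA1 KI cerebellum. Its groups overlapped and the LFC was -0.92 ± 0.46 SE (adjusted p = 0.339), and it moved with single libraries. It was -1.48 (adjusted p = 0.0434) without WT cerebellum library 4, -0.47 (0.801) without WT cerebellum library 2 and -0.52 (0.716) without SCA1 KI cerebellum library 5. Adcyap1 had 635, 425 and 407 in WT and 411, 450 and 396 in SCA1 KI cerebellum. Apart from WT library 2, its libraries lay between 396 and 450, and the LFC was -0.19 ± 0.18 SE (adjusted p = 0.674).

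**Figure D3:**
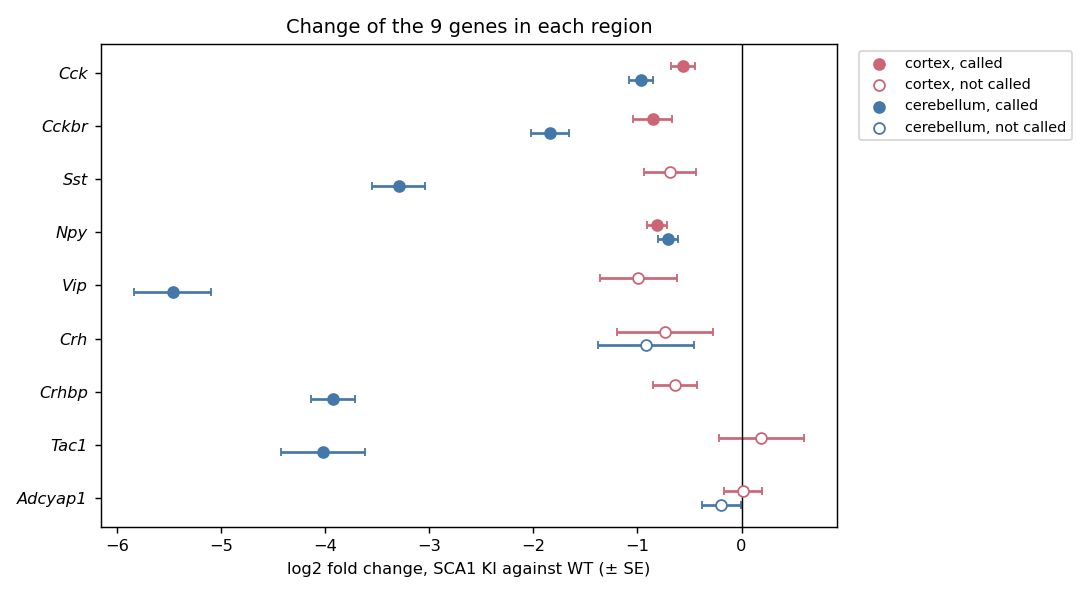
LFC of SCA1 KI against WT (± SE) of the 9 genes in cortex and cerebellum, with filled points for called genes and open points for others. Changes in the cortex lie between -0.99 and 0.19, and those in the cerebellum between -5.47 and -0.19.

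Marker genes of other brain regions and of glia were lower in SCA1 KI cerebellum as well, and some of the 9 genes shared their order of WT libraries. Of the 11 midbrain and brainstem genes, 9 were tested and 6 were called lower there, with a median LFC of -3.38. Among them Tal1, the called gene of this list with the highest counts, had 248, 107 and 185 in WT libraries 2, 4 and 6 and between 45.3 and 50.3 in SCA1 KI cerebellum. Tcf7l2 and Slc17a6, chosen after their values were seen from a list of thalamus genes of which 4 of 7 tested were called lower, had 2404, 1480 and 2051 and 6803, 2878 and 3911 in the same WT libraries. In SCA1 KI cerebellum Tcf7l2 lay between 210 and 249 and Slc17a6 between 982 and 1310. The thalamus list summed to between 9427 and 14361 in WT and to between 5620 and 5920 in SCA1 KI cerebellum. Library 2 was highest and library 4 lowest for each of these genes, as for Sst, Tac1, Cckbr and Crhbp. For Cck and Npy, also called lower, library 2 was the lowest WT library, as it was for the granule cell and Purkinje cell lists. Without library 2 the LFC was -2.97 for Sst, -3.61 for Tac1, -5.25 for Vip, -3.78 for Crhbp and -1.59 for Cckbr, all still called. WT libraries 4 and 6, which stay in that fit, also had midbrain and brainstem sums (1047 and 1221) above the SCA1 KI range (391 to 461). Leaving out library 2 therefore does not remove the difference in these markers. Other marker lists also had lower sums in every SCA1 KI than in every WT cerebellar library, with few of their genes called. Oligodendrocyte genes (0 of 5 called) summed to 239757, 156327 and 174186 in WT libraries 2, 4 and 6 and to between 133538 and 133910 in SCA1 KI libraries. Microglia genes (1 of 5 called lower) summed to 3565, 2576 and 2844 and to between 2354 and 2480, with the same order of WT libraries. Astrocyte genes (1 of 5) lay between 96669 and 99595 in WT and between 86924 and 90285 in SCA1 KI, hippocampus genes (1 of 7) between 400 and 552 and between 239 and 281, and striatum genes (0 of 7) between 6287 and 7502 and between 5063 and 5614. These 3 lists had other orders of WT libraries. Library 2 was the lowest for astrocyte and striatum genes, and library 6 the lowest for hippocampus genes. The part of these markers in the results was not tested.

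**Figure D4:**
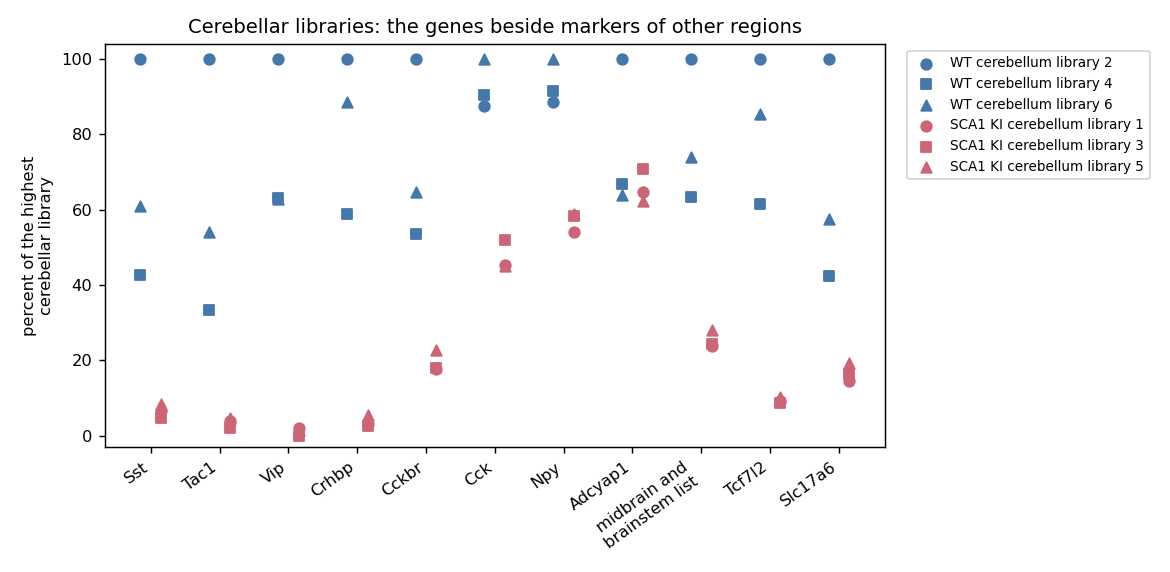
Normalized count in each cerebellar library as percent of the highest of the 6, for 8 of the genes, the summed midbrain and brainstem list, Tcf7l2 and Slc17a6, with blue marks for WT and red marks for SCA1 KI. WT library 2 is the highest for Sst, Tac1, Vip, Crhbp and Cckbr and for the markers, whereas library 6 is the highest for Cck and Npy.

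The cerebellar level of cortical excitatory markers varied widely in percent of the cortical level, and those named here were chosen after their values were seen. Percents are of the cortical level in the same genotype, and Cux2, Rorb, Nrgn, Camk2a and Slc17a7 were called lower in SCA1 KI cortex. A higher percent in SCA1 KI mice is therefore not by itself a higher cerebellar level. Tbr1 had 0.337% of its cortical level in WT and 0.672% in SCA1 KI mice, Emx1 0.217% and 0.356%, and Fezf2 0.0685% and 0%. None of these 3 was called lower in SCA1 KI cerebellum, and Tbr1 was called higher (LFC 0.58 ± 0.13 SE, adjusted p = 0.0220). Other factors of the list stood higher, with Neurod2 at 125% and 139%, Foxp2 at 167% and 89.4%, Cux2 at 31.5% and 48.4%, Rorb at 19.3% and 25.2%, Neurod6 at 8.23% and 9.48% and Bcl11b at 8.89% and 2.57%. Of these, Bcl11b, Foxp2 and Rorb were called lower in SCA1 KI cerebellum. By contrast Nrgn, a calmodulin-binding protein of forebrain neurons, fell from a mean of 2315 to 123, or from 2.95% to 0.253% of the cortical level. Camk2a, also called lower in SCA1 KI cerebellum, stood at 3.42% and 3.69%, and Slc17a7, not called there, at 24.2% and 43.1%. Over the cortical excitatory list, 5 of 13 genes were called lower in SCA1 KI cerebellum and 1 higher, and its sum ranged from 30316 to 35210 in WT and from 29908 to 32324 in SCA1 KI libraries. Set beside these, Vip stood at 4.64% of its cortical level in WT and 0.140% in SCA1 KI cerebellum, Crhbp at 4.95% and 0.344%, Sst at 10.6% and 1.66%, and Tac1 at 56.3% and 2.61%. Npy, called lower in both regions, stood at 12.6% and 13.5%.

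The change between genotypes differed between the regions for 5 of the 9 genes, beside 8.15% of all genes tested, by the interaction term of the same fit. The LFC was lower in the cerebellum for Vip (difference of LFC 4.48 ± 0.53 SE, adjusted p = 5.44e-04), Tac1 (4.21 ± 0.57 SE, adjusted p = 0.00109), Crhbp (3.29 ± 0.30 SE, adjusted p = 1.51e-04) and Sst (2.60 ± 0.36 SE, adjusted p = 0.00110). Of these, Tac1 did not fall in the cortex (LFC 0.19). Cckbr had a difference of 0.99 ± 0.26 SE (adjusted p = 0.0366), which was called in 3 of 12 fits that each left out a library, without WT cerebellum library 2 (0.0324), WT cerebellum library 4 (0.00925) or SCA1 KI cerebellum library 5 (0.0343), and had an adjusted p between 0.0509 and 0.0952 without any of the others. For Cck the difference was 0.40 ± 0.16 SE (adjusted p = 0.163), or 0.53 (adjusted p = 0.0403) without SCA1 KI cortex library F. For Npy it was -0.10 ± 0.13 SE (adjusted p = 0.721), with 2 SE on either side reaching from -0.37 to 0.16. Crh (0.18 ± 0.65 SE, adjusted p = 0.910) and Adcyap1 (0.21 ± 0.26 SE, adjusted p = 0.712) did not pass.

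The peptides act on receptors, of which 14 of 16 listed were tested besides Cckbr, while Cckar and Sstr5 were not among the 15759 genes with normalized counts. In the cortex 3 were called lower, beside 10.8% of all genes tested, and none higher. These were Sstr2 (LFC -1.10 ± 0.26 SE, adjusted p = 0.0112), which had a mean of 870 in WT and 416 in SCA1 KI cortex, Vipr1 (-0.57 ± 0.13 SE, adjusted p = 0.00818) and Sstr3 (-0.35 ± 0.11 SE, adjusted p = 0.0406). Crhr1, the main receptor of corticotropin-releasing hormone, had means of 1182 and 860 (LFC -0.46, adjusted p = 0.0694), and Npy1r means of 1547 and 1310 (adjusted p = 0.455). In the cerebellum 6 were called lower, beside 4.44% of all genes tested, and 1 higher. The lower ones included the tachykinin receptors Tacr1 (LFC -4.01 ± 0.51 SE, mean 133 in WT and 6.93 in SCA1 KI) and Tacr3 (-3.56 ± 0.45 SE, 126 and 9.81), Npy5r (-2.88 ± 0.29 SE, 53.0 and 5.79), Sstr1 (-1.38 ± 0.15 SE, 352 and 131) and Npy1r (-1.34 ± 0.20 SE, 191 and 72.4). Sstr3 was the 1 that was higher there (0.41 ± 0.11 SE, adjusted p = 0.0463). Adcyap1r1, the PACAP receptor, had means between 6719 and 7500 in all groups and, like Adcyap1, was called in neither region.

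Other neuropeptide genes gave 2 called lower of 13 tested in the cortex, beside 10.8% of all genes tested. They were Pthlh (LFC -0.52 ± 0.15 SE, adjusted p = 0.0341) and the enkephalin precursor Penk (-1.21 ± 0.37 SE, adjusted p = 0.0408, with overlapping libraries). Cort, a relative of somatostatin made by a subset of interneurons, had means of 226 in WT and 113 in SCA1 KI cortex with no overlap (LFC -1.02 ± 0.38 SE, adjusted p = 0.0818). In the cerebellum 5 of 13 were called lower, beside 4.44% of all genes tested. Among them were the dynorphin precursor Pdyn (LFC -3.86 ± 0.58 SE), Cartpt (-3.32 ± 0.48 SE), Tac2 (-2.43 ± 0.27 SE) and Grp (-2.42 ± 0.40 SE), each with a mean of at most 3.98 normalized counts in SCA1 KI libraries. Cort was at 2.89 and 1.01 there.

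Genes that cut, amidate or package peptide precursors changed less. In the cortex 2 of 13 were called lower, beside 10.8% of all genes tested. They were the prohormone convertase Pcsk2 (LFC -0.59 ± 0.06 SE, adjusted p = 6.20e-05, means 23341 and 15507) and Cadps2 (-0.62 ± 0.12 SE, adjusted p = 0.00422), which primes dense-core vesicles. The median LFC of this list was -0.11. In the cerebellum 4 were called lower, beside 4.44% of all genes tested. They were the granin Scg2 (-0.76 ± 0.11 SE, adjusted p = 0.00197), Pcsk2 (-0.30 ± 0.06 SE, adjusted p = 0.0154), the amidating enzyme Pam (-0.57 ± 0.14 SE, adjusted p = 0.0314) and Vgf (-0.63 ± 0.15 SE, adjusted p = 0.0317). Cadps2 was called higher there (0.63 ± 0.12 SE, adjusted p = 0.0102).

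**Figure D5:**
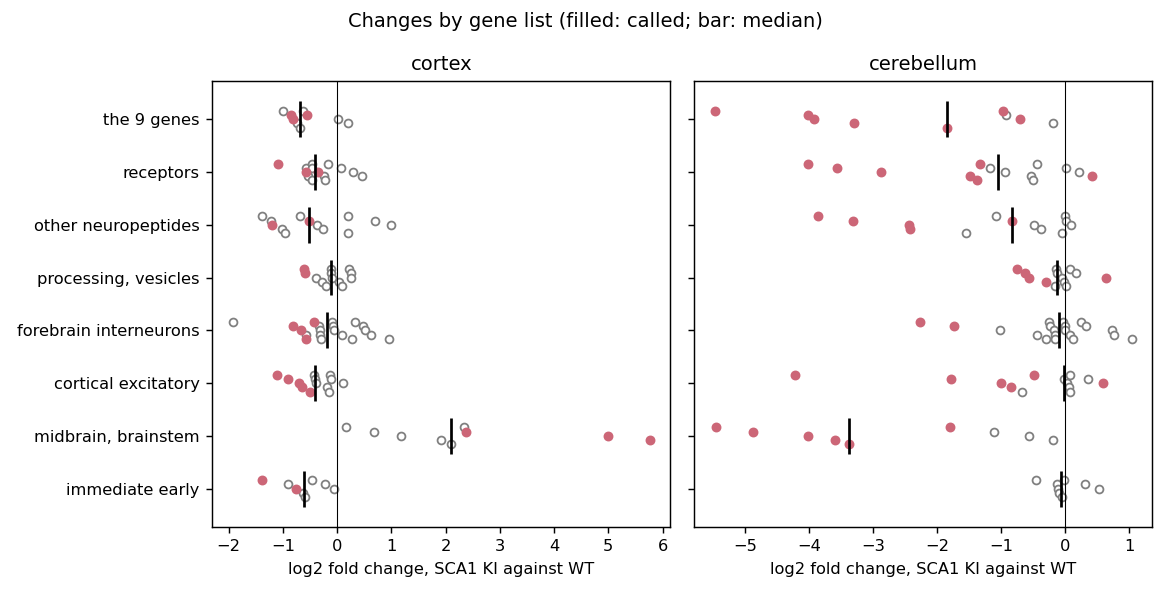
LFC of SCA1 KI against WT of the tested genes of 8 lists in cortex (left) and cerebellum (right), with filled points for called genes and black bars for list medians. The median of the 9 genes is -0.69 in the cortex and -1.84 in the cerebellum, and the midbrain and brainstem list has medians of 2.09 and -3.38.

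Forebrain interneurons are the cells in which most of these peptides are made in the cortex. Among 20 of their genes 4 were called lower in SCA1 KI cortex, beside 10.8% of all genes tested, with a median LFC of -0.19. Among them were Reln (LFC -0.81 ± 0.17 SE, adjusted p = 0.00590), Pvalb (-0.66 ± 0.16 SE, adjusted p = 0.0111) and the GABA synthesis gene Gad1 (-0.42 ± 0.13 SE, adjusted p = 0.0448). The vesicular GABA transporter Slc32a1 (LFC 0.09 ± 0.11 SE, adjusted p = 0.649), Gad2 (-0.06 ± 0.14 SE, adjusted p = 0.816) and the lineage factor Lhx6 (-0.29 ± 0.26 SE, means 855 and 701), chosen after their values were seen, did not pass. The summed list lay between 68946 and 75032 in WT and between 44399 and 62560 in SCA1 KI cortex. Excitatory markers moved in the same libraries, with 5 of 13 called lower and sums between 340933 and 368930 in WT and between 186202 and 217412 in SCA1 KI cortex. Astrocyte genes were lower as well, with 3 of 5 called (Aldh1l1, Slc1a3 and Aqp4) and sums between 50263 and 55335 in WT and between 33383 and 43584 in SCA1 KI cortex, and so were 3 of 6 genes of the Purkinje cell list, with sums between 42184 and 45147 and between 24610 and 28747. Of 8 immediate early genes, which report recent activity, Arc and Egr1 were called lower in the cortex, and the list summed to between 31601 and 52117 in WT and between 18580 and 24066 in SCA1 KI libraries. Midbrain and brainstem genes were the opposite, with 3 of 9 tested called higher in SCA1 KI cortex, Pou4f1, Tal1 and Shox2. Tal1 had 121, 115 and 125 in WT and 991, 509 and 497 in SCA1 KI libraries A, E and F. The part of these markers in the changes of the 9 genes was not tested.

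The genes with the pattern most like each of the 9 were sought by the root mean square difference of centred log2 values over the 12 libraries, a description in which all points share the same libraries. Npy had the closest neighbour, Chn1, at a difference of 0.118, and its LFC of -0.72 in the cortex and -0.62 in the cerebellum lay near those of Npy. Next came Grm8 for Adcyap1 (0.160), Kcns1 for Cck (0.194), Ngef and Enc1 for Cckbr (0.223 and 0.254), and Hs3st4 and Doc2a for Sst (0.276 and 0.282). Crh was nearest to Kcnq5 (0.419), Crhbp to Cpne5 (0.451) and Lhx2 (0.479), and Tac1 to Glra3 (0.459) and Asic4 (0.473). Vip had the most distant neighbours, Nrgn (0.559) and Crhbp (0.766), with an LFC of -4.22 and -3.93 in SCA1 KI cerebellum.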

How the data were processed

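RNA of whole cortex and whole cerebellum was measured in 12 libraries, 3 in each group of region and genotype. As the submitters' processing notes and the study's methods give it, the authors mapped reads to mm10 by STAR, assigned them to genes by featureCounts and scaled the counts by DESeq2. The deposited signal is a normalized count, the reads of a gene divided by the size factor of the library. Reads came out whole in 100% of values (tolerance 0.01 reads), so the recovered counts were used for edgeR and DESeq2. Whether counting used strand is not given in the sources used here. Columns name region and genotype, so groups were assigned from them, and libraries are called by the letter or number of their column.

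Of 15759 entries, 390 with a mean under 10 normalized counts were left out. In R 4.3.3, limma 3.58.1 was run with trended empirical Bayes moderation on log2(normalized count + 1) over 12 libraries and 4 group means, with contrasts of genotype within region, region within genotype and their interaction, which was called at an adjusted p under 0.05 alone. On this scale the change of a gene counted at few reads comes out too small. Alternatives were edgeR 4.0.16 by its quasi-likelihood test, DESeq2 1.42.0, separate fits of the regions, pseudocounts of 0.5 or 5, a filter at 100 or none, an LFC limit of 1 or none, median centring, removal of the dependence on length and GC, and leaving out each library. The model fits were tested on simulated data. Pairs of libraries of a group differed by more than counting noise (7.54 to 36.6 chi-square per gene), which cannot show whether they came from separate animals. Each was counted as a sample, as the labels list them as replicates. Depth per library was 29520855 to 51311309 reads on genes, where 3 reads correspond to 2.06 to 3.66 normalized counts, and intervals cover counting error only.

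Coordinates and exon lengths are those of GENCODE vM21 on GRCm38, the build of mm10, which matched 15009 symbols and all 9 genes, none of which overlaps another gene. Promoter windows are from RefSeq (GRCm38.p6). The 9 genes and the lists of receptors, peptides, processing genes and cell markers were chosen with earlier results of these data known. Named were all 9 genes, the 2 genes nearest to each in pattern, from each of the lists of receptors, peptides, processing genes and interneurons the called genes with the smallest p (at most 4 in each direction), Cckar, Crhr1, Npy1r, Adcyap1r1 and Cort, and the most abundant markers of lists that moved with the 9 genes. A few genes that fall under it are left out here, and other genes named are marked as chosen after their values were seen.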

Additional observations from a re-analysis of the deposited data

Results flagged for a closer look

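In 5 of the 9 genes the change of SCA1 KI against WT differed between the regions by the interaction term of limma. The difference in LFC, cortex minus cerebellum, was 4.475 for Vip, 4.210 for Tac1, 3.291 for Crhbp, 2.604 for Sst and 0.987 for Cckbr, so each had the lower LFC in the cerebellum. Tac1 did not fall in the cortex (LFC 0.19, not called). The first 4 were called in each of the 12 fits without a library, and Cckbr in 3 of them. Region cannot be told apart from the source of the libraries, and markers of midbrain and brainstem were lower in SCA1 KI cerebellum and higher in SCA1 KI cortex. Their part in these differences was not tested.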

How the results depend on the processing

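The 9 genes gave 3 calls in the cortex, 5 with a pseudocount of 5, 7 with each region fitted on its own, 6 with edgeR, 6 with DESeq2 and 0 with an LFC limit of 1, and 3 to 5 when 1 library was left out. Over all genes in the cortex, 741 were called higher and 1661 lower. Those lower were 1715 with a pseudocount of 5, 1326 with each region on its own, 1630 with edgeR and 1844 with DESeq2. With each region on its own 393 were higher, with the LFC limit of 1 there were 90 higher and 233 lower, and without 1 library 529 to 806 and 1285 to 1787. In the cerebellum 141 were higher and 683 lower. Those higher were 220 with each region on its own, 546 after removal of the length and GC trend, 231 with DESeq2 and 9 with the limit of 1, under which 303 were lower, and without 1 library 43 to 195 were higher and 356 to 806 lower. The interaction gave 1253 genes, and 783 to 1267 without 1 library. Directions reversed only for values that were not called. For Crh the interaction was -0.0713 with a pseudocount of 5 and -0.27 to 0.74 without 1 library. For Adcyap1 the cortical LFC was -0.0251 after removal of the trend, -0.00712 with DESeq2 and -0.18 to 0.18 without 1 library, and its cerebellar LFC -0.31 to 0.0099 without 1 library. For Tac1 in the cortex it was -0.13 to 0.51 without 1 library. The LFC limit and the smaller sets of libraries change counts by their construction, and for the other settings the cause was not tested. Of 414 values of single genes under other settings, 391 kept direction and call, and of 540 without 1 library 512 did. No paired analysis was possible because the columns carry letters and numbers of their own and none of the replicate numbers of the labels. Counts of at most 3 reads per library limit what can be said of Vip and Crhbp in SCA1 KI cerebellum, and Crh had 3 to 25 reads per cerebellar library.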
